A study of Drosophila melanogaster with 9 samples.

Results

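Beat, Side and Dpr proteins belong to the immunoglobulin superfamily and sit at the surface of Drosophila neurons and of the cells their axons meet. Beat-Ia, which motor neurons make, binds Side, a transmembrane protein that marks the path of motor axons, and other Beat proteins bind other members of the Side family. Dpr proteins, named after the gustatory mutant defective proboscis extension response, bind the Dpr-interacting proteins (DIPs) in defined pairs, and neurons that carry matching pairs recognise each other as they choose partners and form synapses. Both families were followed here by their RNA in the larval ventral nerve cord (VNC).

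The VNCs held tumors of dedifferentiated neuroblasts (dNBs), the neural stem cells that accumulate when their daughters lack the transcription factor Prospero. The members were every row of the deposited gene table whose symbol begins with beat-, is side, or is dpr with or without a number. They numbered 35 of 15340 genes: 14 beat genes, side, and 20 dpr genes (dpr and dpr2 to dpr20). The row spelled Side with a capital is another gene, Sidpn, and was left out, and so was dpr21, which the table lists under its older symbol CG42596.

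The 3 conditions all carried nab-GAL4, which drives transgenes in the neuroblasts of the VNC and central brain, together with UAS-dicer2 and UAS-prosperoRNAi. The first, nab>prosRNAi, chinmoRNAi, also carried UAS-chinmoRNAi against the transcription factor Chinmo, the second was nab>prosRNAi alone, and the third, nab>prosRNAi, chinmo, also carried UAS-chinmoFL. They are called the chinmoRNAi, prosRNAi and chinmo libraries below, in rising order of chinmo RNA, and no condition without the pros knockdown was included. Each condition had 3 biological replicates (A, B and C), each a pool of VNCs from many late third-instar larvae raised at 18°C for 7 days before 3 days at 29°C. The pools hold all cells of the VNC, including neurons and glia outside the reach of the driver. Values are DESeq-normalized counts, that is, reads on a gene divided by a size factor of the library, and all 35 members passed the filter of at least 15 summed counts in every comparison.

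Reads on genes ranged from 30677075 to 43415151 per library. The targeted gene chinmo had 5427, 6330.2 and 4518 normalized counts in the chinmoRNAi libraries, 8190.1, 8533 and 8819 in the prosRNAi libraries and 71836, 89792 and 81295 in the chinmo libraries. The order of the labels therefore held in every library, and reads of the overexpressed construct are part of the last values. Over the same order pros, the RNAi target in all conditions, fell from 31510.1 to 42387 to 15859 to 19997 and then to 8607 to 10751. The 12 neuron markers (elav, nSyb, Syt1, brp, Syx1A, cpx, fne, Rab3, Syn, VGlut, ChAT and Gad1) summed to 89286 to 124465 normalized counts in the chinmoRNAi libraries, 58486 to 82574 in the prosRNAi libraries and 26874 to 49922 in the chinmo libraries. Of these 12 markers, 8 were lower in the first step of Chinmo level (prosRNAi against chinmoRNAi), 1 in the second (chinmo against prosRNAi) and 10 between the extremes (chinmo against chinmoRNAi), with median log2 fold changes of -0.70, -0.83 and -1.55. Motor neuron markers (VGlut, exex, tup, Lim3 and eve) were lower in 4, 3 and 5 of 5 in the same comparisons. All 6 neuroblast markers (mira, dpn, wor, ase, insc and grh) were higher in the first step and 5 were higher between the extremes, while in the second step 1 of them was lower. Of 8 glial markers, 4 were lower and 2 higher in the first step, 1 was lower and 1 higher in the second, and 4 were lower and 2 higher between the extremes. Muscle markers summed to 5140 to 5509, 4571 to 11515 and 1131 to 6322 normalized counts in the chinmoRNAi, prosRNAi and chinmo libraries, and 1 of 6 was higher in the first step and 1 lower between the extremes. Fat body markers summed to 167881 to 430251, 52182 to 183093 and 11494 to 113453, and 1 of 4 was lower in the first step and 2 between the extremes. No marker gene of any list was at 0 in any library. In tissue of mixed cells, fewer cells of a type and less RNA per cell cannot be told apart, and the part of the muscle, glia and fat body markers in the values below was not tested.

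Replicate C stood apart in 2 conditions before any comparison was made. In the prosRNAi condition it held the highest value of all 35 members, against 35.8% of all genes, and its median member lay 0.49 (beat and side) and 0.51 (dpr) log2 units above the other libraries of the condition. In the chinmo condition replicate C held the lowest value of 15 of 15 beat and side genes and 18 of 20 dpr genes, against 37.5% of all genes, with median deviations of -0.72 and -0.80. The neuron markers moved the same way in these libraries, by 0.54 and -0.91, and so did the means of the muscle and glial lists. The mean log2 level of the 6 muscle markers was 10.60 in prosRNAi replicate C against 9.45 and 9.31 in replicates A and B, and 7.10 in chinmo replicate C against 9.61 and 8.68. That of the 8 glial markers was 12.36 against 12.12 and 11.95, and 11.63 against 12.11 and 12.21, with the astrocyte gene alrm at 599 normalized counts in chinmo replicate C against 1495 and 1818. The glial genes loco and wrapper instead had their highest values of the chinmo condition there (5234 and 4268). The neuroblast mean went the other way, at 13.91 against 14.09 and 13.95, and 13.98 against 13.89 and 13.79. Fat body markers did not follow, at 15.33 against 13.48 and 15.37, and 14.00 against 13.91 and 11.14. Among the members, exceptions in the chinmo condition were dpr16 and dpr18, whose highest value of the condition was in replicate C. In the chinmoRNAi condition replicate B held the highest value of 14 of 15 beat and side genes and 18 of 20 dpr genes. The share of all genes was 36.8%. Its median deviations were 0.37 (beat and side), 0.37 (dpr) and 0.39 (neuron markers). Replicate C of that condition was lowest for 10 of 15 and 16 of 20, against 49.7% of all genes.

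**Figure D1:**
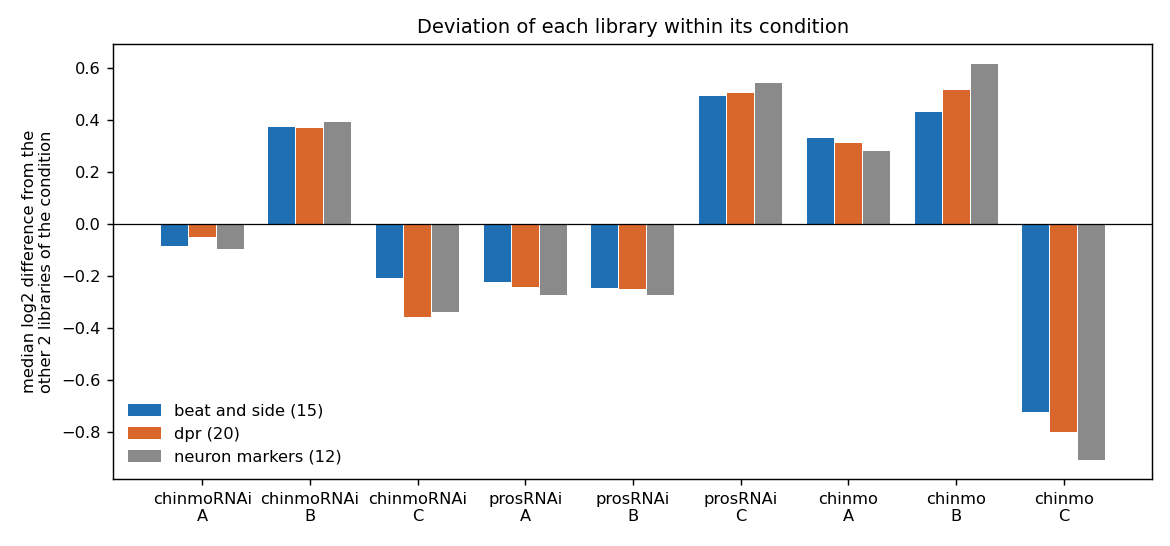
Median log2 difference of each library from the other 2 libraries of its condition, for the 15 beat and side genes (blue), the 20 dpr genes (orange) and the 12 neuron markers (grey), with the 9 libraries along the horizontal axis. Both families follow the neuron markers in sign in every library, the bars of replicate C point up in the prosRNAi condition (0.49, 0.51 and 0.54), and the lowest bars are those of replicate C of the chinmo condition (-0.72, -0.80 and -0.91).

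Between the lowest and the highest Chinmo level 33 of 35 members fell, and the exceptions were dpr16 and dpr18. The share of all genes called lower in that comparison was 22.7%. The 15 beat and side genes together summed to 15474 to 20709 normalized counts in the chinmoRNAi libraries, 6991 to 9369 in the prosRNAi libraries and 3291 to 5199 in the chinmo libraries, ranges that did not overlap. The 20 dpr genes summed to 25450 to 31448, 13139 to 18234 and 7485 to 11490, and these ranges did not overlap either. Changes are given below as log2 fold changes on the log2(normalized count + 1) scale from limma, with Benjamini-Hochberg adjustment over all genes tested and a threshold of 0.05, and every n is 3 libraries per condition. The prosRNAi libraries are the upper arm of the first step and the lower arm of the second, so the steps are not independent.

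In the beat family and side, 13 of 15 genes were lower in the prosRNAi libraries than in the chinmoRNAi libraries, in a comparison where 17.9% of all genes tested were called lower. Their median log2 fold change was -1.12, against -0.05 over all genes. The remaining members, beat-Ib and beat-IIIb, had log2 fold changes of -0.64 (SE 0.22) and -0.64 (SE 0.22) and missed the threshold, with limma adjusted p-values of 0.0572 and 0.0603. In the second step 5 of 15 were lower, where 8.26% of all genes were called lower, and the median was -0.84 against -0.02. The 10 others had negative log2 fold changes too, between -1.10 for beat-IIb and -0.54 for beat-IIIc. Between the extremes all 15 were lower, where 22.7% of all genes were called lower, with a median of -1.97 against -0.03 and a range from -2.61 (beat-Ia) to -1.31 (beat-Ib). Leaving out any 1 prosRNAi library took the second-step count from 5 to 1, while leaving out replicate C of every condition, an alternative chosen after seeing the data, gave 6. The second-step lower calls over all genes moved too, from 913 of 11057 to 406 of 10921, 234 of 10886 and 517 of 10856 without prosRNAi replicate A, B and C. Without replicate C of every condition they were 1097 of 10678.

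The 5 members lower in both steps were beat-Ia, beat-VI, beat-Vb, beat-Vc and side, where 4.31% of all genes tested in both steps were. beat-Ia, the secreted motor axon protein that frees motor axons from their bundles, had 2465, 2941 and 2039 normalized counts in the chinmoRNAi libraries, 678, 656 and 837 in the prosRNAi libraries and 469.5, 425 and 326 in the chinmo libraries. The 3 groups of values did not overlap. Its log2 fold change was -1.77 (SE 0.16, limma adjusted p = 0.000467) in the first step, -0.84 (SE 0.17, limma adjusted p = 0.0191) in the second and -2.61 (SE 0.19, limma adjusted p = 0.000172) between the extremes. side, which encodes the protein that Beat-Ia binds, had 2724, 2847 and 2204 normalized counts in the chinmoRNAi libraries, 1032, 1064 and 1189 in the prosRNAi libraries and 707, 696 and 575 in the chinmo libraries. All chinmo libraries lay below all prosRNAi libraries, and these below all chinmoRNAi libraries, and the spread within a condition was narrow. The log2 fold changes of side were -1.24 (SE 0.13, limma adjusted p = 0.000729), -0.73 (SE 0.11, limma adjusted p = 0.00763) and -1.97 (SE 0.14, limma adjusted p = 0.000172) in the same order, and its second-step call also stood without any 1 prosRNAi library where that of beat-Ia did not.

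beat-VI, whose protein binds Side-II, had 3265, 3481 and 2468 normalized counts in the chinmoRNAi libraries, 1076, 1142 and 1401 in the prosRNAi libraries and 835, 824 and 593 in the chinmo libraries. Its values separated the 3 conditions without overlap. It fell in the first step (-1.34 (SE 0.16, limma adjusted p = 0.00122)) and in the second (-0.69 (SE 0.16, limma adjusted p = 0.0324)). Between the extremes its log2 fold change was -2.03 (SE 0.19, limma adjusted p = 0.00034). The second-step call of beat-VI was lost in 7 of 21 alternatives, and its sign changed in 1 more.

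The beat-V genes, whose proteins bind Side-VI, lie close together on chromosome 3R, with 1 coding gene between beat-Vc and beat-Va and 3 between beat-Va and beat-Vb in the RefSeq annotation of Release 6 plus ISO1 MT. beat-Vb had 981, 1129 and 1027 normalized counts in the chinmoRNAi libraries, 344, 345 and 489 in the prosRNAi libraries and 219.6, 215 and 140.0 in the chinmo libraries. Between each condition and the next its values left a gap. beat-Vc had 829.9, 984 and 806 normalized counts in the chinmoRNAi libraries, 296, 285 and 419 in the prosRNAi libraries and 189, 195 and 116 in the chinmo libraries, again without overlap. The log2 fold changes of beat-Vb were -1.43 (SE 0.17, limma adjusted p = 0.00108) and -1.04 (SE 0.24, limma adjusted p = 0.0282) in the first and second step, and those of beat-Vc were -1.40 (SE 0.18, limma adjusted p = 0.00149) and -1.01 (SE 0.26, limma adjusted p = 0.0412). Between the extremes they reached -2.47 and -2.42. The second-step calls of beat-Vb and beat-Vc were lost in 7 and 10 of 21 alternatives. beat-Va, the third gene of the cluster, ranged over 841 to 979, 389 to 485 and 131 to 309.8 normalized counts and was lower in the first step (-1.09 (SE 0.14, limma adjusted p = 0.00142)), whereas its second step was -0.95 (SE 0.32, limma adjusted p = 0.0813).

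Clustered beat genes outside the beat-V group had smaller first-step changes in part of their members. Of the beat-I genes on chromosome 2L, beat-Ia fell most, and its paralogs beat-Ic and beat-Ib had first-step log2 fold changes of -0.94 (limma adjusted p = 0.014) and -0.64 (adjusted p = 0.0572). Among the beat-III genes, also on 2L, the first step gave -1.43 for beat-IIIc, -1.12 for beat-IIIa and -0.64 for beat-IIIb. The pair beat-IIa and beat-IIb, whose proteins bind Side-IV, gave -0.73 and -0.65 in the first step and -0.91 and -1.10 in the second, of which only the first-step changes were called. beat-IV and beat-VII were lower in the first step (-1.07 and -1.45) and between the extremes (-1.97 and -2.21), and neither second step passed.

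**Figure D2:**
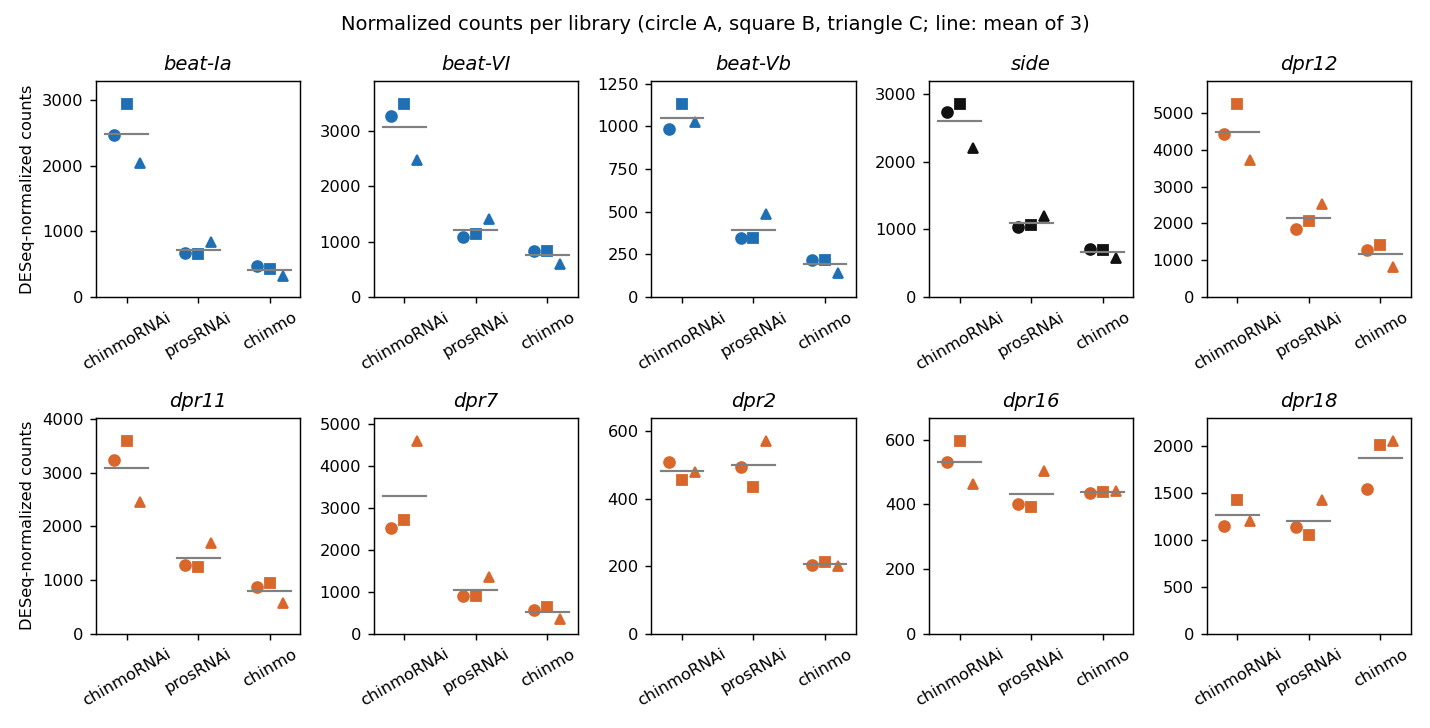
DESeq-normalized counts per library (vertical axes, starting at 0) of 10 members in the chinmoRNAi, prosRNAi and chinmo conditions; circles, squares and triangles are replicates A, B and C and the line is the mean of 3. beat-Ia, beat-VI, beat-Vb, side, dpr12, dpr11 and dpr7 step down at both changes of condition without overlap, dpr2 drops only at the last step, dpr16 stays between 392 and 597, and dpr18 is highest in the chinmo libraries (1543 to 2057).

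Of the 20 dpr genes, 13 were lower in the first step (17.9% of all genes), 6 in the second (8.26%) and 18 between the extremes (22.7%), and 1, dpr18, was higher in the second step and between the extremes, where 9.74% and 19.9% of all genes were called higher. The median log2 fold changes of the family were -0.82, -0.83 and -1.67, against -0.05, -0.02 and -0.03 over all genes. In the first step dpr2, dpr4, dpr5, dpr14, dpr15, dpr16 and dpr18 had log2 fold changes between -0.53 and 0.05 and were not called. Without 1 of prosRNAi replicates A and B, the first-step count was 8 or 7, and without any 1 prosRNAi library the second-step count was 1. Leaving out replicate C of every condition gave 18 for the first step and 6 for the second. First-step lower calls over all genes went from 2048 of 11470 to 1315 of 11340 and 1285 of 11336 without prosRNAi replicate A and B. They were 2677 of 11046 without replicate C of every condition.

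The dpr genes lower in both steps were dpr, dpr7, dpr11, dpr12 and dpr17 (5 of 20, against 4.31% of all genes). The second-step calls of dpr, dpr11, dpr12 and dpr17 were lost in 6, 8, 7 and 7 of 21 alternatives. dpr, the founding member that flies need for the normal avoidance of salt, had 1527, 1867 and 1298 normalized counts in the chinmoRNAi libraries, 586, 619.8 and 764 in the prosRNAi libraries and 401, 403 and 259 in the chinmo libraries. Its conditions did not overlap. Its log2 fold changes were -1.24 (SE 0.17, limma adjusted p = 0.00178) and -0.91 (SE 0.20, limma adjusted p = 0.0276) in the first and second step and -2.15 between the extremes.

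dpr12, whose protein binds DIP-delta, had 4442, 5241 and 3731 normalized counts in the chinmoRNAi libraries, 1854, 2060.3 and 2522 in the prosRNAi libraries and 1269, 1422 and 808 in the chinmo libraries. Here too the conditions were separate, with replicate B highest among the chinmoRNAi libraries and replicate C lowest among the chinmo libraries. The log2 fold changes of dpr12 were -1.06 (SE 0.16, limma adjusted p = 0.00297) and -0.91 (SE 0.22, limma adjusted p = 0.0354), and -1.96 between the extremes.

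dpr7 had 2532, 2705 and 4604 normalized counts in the chinmoRNAi libraries, 895, 898 and 1357 in the prosRNAi libraries and 564, 643 and 347 in the chinmo libraries. Replicate C of the chinmoRNAi condition stood far above the other libraries, although it was the lowest of its condition for 16 of 20 dpr genes. dpr7 has the shortest exon length of all members (1515 bases), and in that library genes with under 1011 bases of exon lay 0.44 log2 units above the other chinmoRNAi libraries and genes with over 3775 bases had a median deviation of -0.40. The log2 fold changes of dpr7 were -1.62 (SE 0.26, limma adjusted p = 0.00348), -1.04 (SE 0.27, limma adjusted p = 0.0408) and -2.65 (SE 0.30, limma adjusted p = 0.00067). Without this library they were -1.35 in the first step and -2.38 between the extremes, and with the length trend removed from each library -1.60 and -2.67, and these calls stood. The second-step call of dpr7 was lost in 10 of 21 alternatives, among them the fits without prosRNAi replicate A (-1.14, limma adjusted p = 0.0774), B (-1.14, adjusted p = 0.0923) or C (-0.84, adjusted p = 0.1003) and without chinmo replicate A (-1.12, adjusted p = 0.0734) or C (-0.77, adjusted p = 0.0515).

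The proteins of dpr11, dpr15, dpr16 and dpr17 share the partner DIP-gamma, and their genes did not change alike in the calls. dpr11 had 3227, 3591 and 2456 normalized counts in the chinmoRNAi libraries, 1284, 1249 and 1684 in the prosRNAi libraries and 874, 946 and 574 in the chinmo libraries, and its conditions did not overlap. dpr17 had 1547, 1711 and 1224 normalized counts in the chinmoRNAi libraries, 607, 593 and 807 in the prosRNAi libraries and 445, 384 and 311 in the chinmo libraries, also without overlap. Their first-step log2 fold changes were -1.13 (SE 0.18, limma adjusted p = 0.00315) and -1.16 (SE 0.17, limma adjusted p = 0.00282), and their second-step log2 fold changes -0.84 (SE 0.21, limma adjusted p = 0.0385) and -0.81 (SE 0.18, limma adjusted p = 0.0263). dpr15, which lies next to dpr17 on chromosome 3R with 1 coding gene between them, ranged over 344 to 574, 253 to 385 and 98.3 to 226 normalized counts and was lower between the extremes alone (-1.34 (SE 0.36, limma adjusted p = 0.0214)). The DIP-gamma gene itself, listed as CG14521, was lower in the first step (-0.80 (SE 0.21, limma adjusted p = 0.0213)) and between the extremes (-1.62 (SE 0.24, limma adjusted p = 0.00188)). Its first-step call was lost in 7 of 21 alternatives, including each fit without replicate A or B of the chinmoRNAi or prosRNAi condition (-0.84 to -0.65).

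dpr16 was the member of this binding group, and of all 35, that was called in no comparison. It had 531, 597 and 465 normalized counts in the chinmoRNAi libraries, 403, 392 and 504 in the prosRNAi libraries and 436, 439 and 443 in the chinmo libraries. The chinmo libraries differed among themselves by less than those of any other condition and lay below all chinmoRNAi libraries but inside the range of the prosRNAi libraries. Their SD of 3.42 was below the 21.7 that counting error alone gives. Its log2 fold changes were -0.30 (SE 0.16), 0.03 (SE 0.13) and -0.26 (SE 0.14), with limma adjusted p-values of 0.2, 0.887 and 0.178. Without replicate C of the chinmoRNAi condition the change between the extremes was -0.36 and passed (limma adjusted p = 0.0484), and under quantile normalization it was 0.11, so its direction depended on the scaling.

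dpr18 rose. It had 1148, 1429.6 and 1207 normalized counts in the chinmoRNAi libraries, 1135, 1057 and 1426 in the prosRNAi libraries and 1543, 2015 and 2057 in the chinmo libraries. The chinmo libraries lay above all others, while the prosRNAi and chinmoRNAi libraries overlapped. The log2 fold change was -0.07 (SE 0.15, limma adjusted p = 0.75) in the first step, 0.63 (SE 0.15, limma adjusted p = 0.0339) in the second and 0.56 (SE 0.15, limma adjusted p = 0.0198) between the extremes. Both rises kept their sign in every alternative run, but the adjusted p was above 0.05 between the extremes with equal totals (0.44, limma adjusted p = 0.0547) and without chinmoRNAi replicate A (0.50, adjusted p = 0.0684), chinmo replicate B (0.50, adjusted p = 0.0726), chinmo replicate C (0.49, adjusted p = 0.0672) or replicate C of every condition (0.46, adjusted p = 0.0849). In the second step the adjusted p was above 0.05 without prosRNAi replicate A (0.60, limma adjusted p = 0.0958) or B (0.54, adjusted p = 0.112) and without chinmo replicate B (0.57, adjusted p = 0.0908) or C (0.56, adjusted p = 0.0725).

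dpr2 fell at the second step and not at the first. It had 507, 455 and 479 normalized counts in the chinmoRNAi libraries, 494, 434 and 571 in the prosRNAi libraries and 202, 211 and 201 in the chinmo libraries. The chinmo libraries lay close together, with an SD of 5.48 against 14.8 from counting error alone, and below all other libraries, while the prosRNAi and chinmoRNAi libraries overlapped. Its log2 fold change was 0.05 (SE 0.14, limma adjusted p = 0.821) in the first step, -1.27 (SE 0.14, limma adjusted p = 0.00278) in the second and -1.22 (SE 0.14, limma adjusted p = 0.000729) between the extremes. The difference between its second and first step was -1.32 (SE 0.23, limma adjusted p = 0.0125, fit of all 9 libraries), and dpr2 was the only 1 of 35 members whose steps differed by this contrast, which 6.92% of all genes passed in either direction and 3.28% in the negative direction. Its value was -1.33 (limma adjusted p = 0.0724) without prosRNAi replicate A and -1.12 (adjusted p = 0.0541) without prosRNAi replicate C. dpr16 and dpr18 had step differences of 0.33 and 0.70 with limma adjusted p-values of 0.51 and 0.156, so their steps were not shown to differ. dpr19, the nearest dpr gene to dpr2 on chromosome 2L with 100 coding genes between them, was lower in the first step (-0.78 (SE 0.17, limma adjusted p = 0.0116)).

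How the fall was divided between the steps changed when replicate C of each condition was left out. Fits without replicate A or without replicate B of every condition were not run, so a role particular to the C libraries was not tested. Without replicate C of each condition, the steps of 15 of 35 members differed, where 21.7% of all genes did. In 14 of them, 7 beat and side genes and 7 dpr genes, the fall was larger in the first step than in the second. Their difference was thus positive, and 1231 of 11550 genes passed in that direction. The difference was 1.43 for beat-Ia (SE 0.19, limma adjusted p = 0.0077), 0.83 for side (SE 0.12, adjusted p = 0.00833) and 0.95 for dpr11 (SE 0.14, adjusted p = 0.00947), while dpr2 differed the other way at -1.11 (SE 0.23, adjusted p = 0.0222). With all 9 libraries the values were 0.93, 0.50 and 0.30 for beat-Ia, side and dpr11, and did not pass (limma adjusted p = 0.111, 0.221 and 0.719). Leaving out chinmoRNAi replicate C alone, 2 members passed, dpr2 and beat-Ia (1.07, limma adjusted p = 0.0423). These fits without libraries were chosen after seeing the data.

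**Figure D3:**
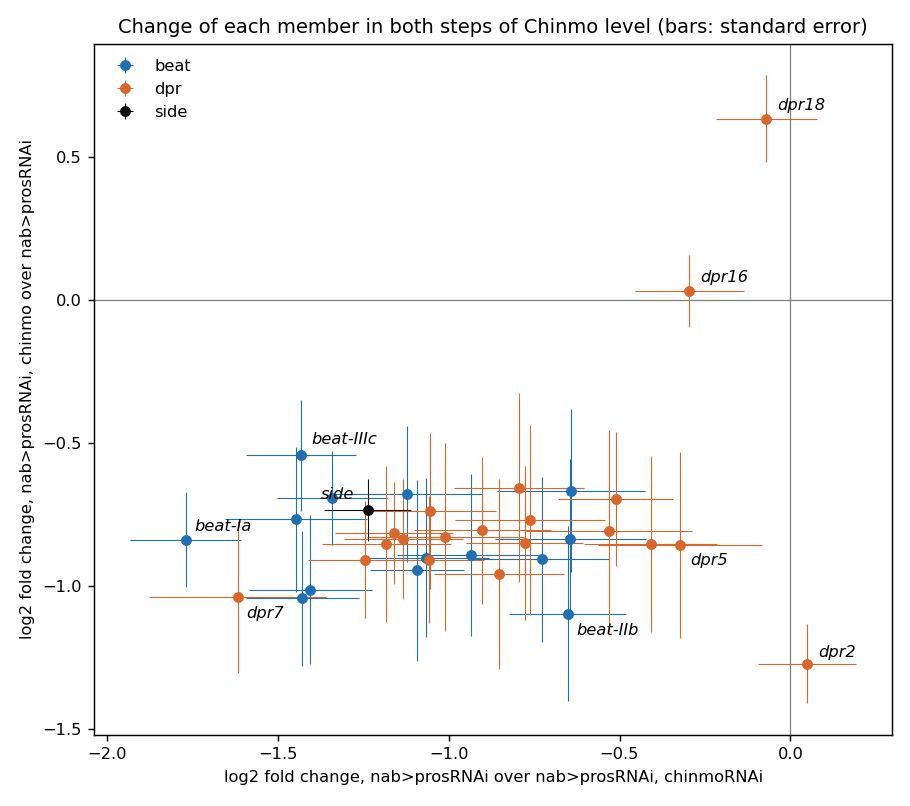
Log2 fold change of each of the 35 members at the first step (horizontal axis, prosRNAi over chinmoRNAi) against that at the second step (vertical axis, chinmo over prosRNAi), with standard errors as bars; beat genes are blue, dpr genes orange and side black. Most members lie in the lower left field, while dpr2 (0.05 and -1.27), dpr16 (-0.30 and 0.03) and dpr18 (-0.07 and 0.63) lie apart.

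The remaining dpr genes were lower in at least one comparison. dpr6 and dpr10, whose proteins bind DIP-alpha, are neighbours on chromosome 3L with 5 coding genes between them, and were lower in the first step (-1.01 and -0.76) and between the extremes (-1.84 and -1.53), with second steps of -0.83 and -0.77 that were not called. dpr13 had the third largest fall of the family between the extremes, -2.03 (SE 0.26, limma adjusted p = 0.00111), after dpr7 and dpr. dpr4 and dpr5 are adjacent on 3R with 0 coding genes between them, and had first-step log2 fold changes of -0.41 (limma adjusted p = 0.153) and -0.32 (adjusted p = 0.347), but both were lower between the extremes, at -1.26 (adjusted p = 0.00911) and -1.18 (adjusted p = 0.0167). dpr14 was likewise lower between the extremes alone (-1.21 (SE 0.24, limma adjusted p = 0.0064)). dpr3, dpr8, dpr9, dpr19 and dpr20 fell in the first step, with log2 fold changes from -1.06 (dpr8) to -0.78 (dpr19), and between the extremes, from -1.81 (dpr9) to -1.45 (dpr20). dpr21, outside the rule, ranged over 1756 to 2820.3, 788 to 1245 and 283 to 568 normalized counts and was lower in the first step (-1.22 (SE 0.23, limma adjusted p = 0.00661)) and between the extremes (-2.28 (SE 0.30, limma adjusted p = 0.00115)).

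The receptors and ligands on the other side of these pairs were counted from a list of 7 side paralogs (side-II to side-VIII) and 11 DIP genes, of which DIP-lambda was not matched in the table. Of the 17 genes measured, 14 were lower in the first step (17.9% of all genes), 5 in the second (8.26%) and 15 between the extremes (22.7%), by the same test, with medians of -0.93, -0.85 and -1.71. Leaving out any 1 prosRNAi library left 1 in the second step, and the first-step count was 8 without prosRNAi replicate A or B. In the same fits 234 to 517 of all genes were called lower in the second step and 1315 or 1285 in the first. The 4 partners lower in both steps, where 4.31% of all genes were, were side-II, side-V, side-VI and DIP-epsilon. side-II, the partner of Beat-VI, had log2 fold changes of -0.68 and -0.97 over the steps. side-VI, the partner of the Beat-V proteins, had -1.14 and -0.97, and the genes beat-Vb and beat-Vc were lower in both steps too. side-V had -0.85 and -0.75 and DIP-epsilon -1.50 and -0.77. The second-step calls of side-II, side-V, side-VI and DIP-epsilon were lost in 9, 8, 7 and 9 of 21 alternatives. In 1 more alternative side-V and DIP-epsilon changed sign. The largest fall between the extremes was that of DIP-eta (-2.30 (SE 0.47, limma adjusted p = 0.00718)).

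In some pairs the values of the partners differed. DIP-alpha (listed as CG32791) had 1216, 1233 and 1015 normalized counts in the chinmoRNAi libraries, 1239, 1237 and 1109.5 in the prosRNAi libraries and 836, 1144 and 1339.7 in the chinmo libraries, which overlapped throughout, and its log2 fold change between the extremes was -0.08 (SE 0.19, limma adjusted p = 0.765), while dpr6 and dpr10, whose proteins it binds, had -1.84 and -1.53 there and were called lower. side-IV (listed as CG14372), a gene named after its values were seen, had 1796, 2230.3 and 1490.2 normalized counts in the chinmoRNAi libraries, 1906, 1593 and 1779.9 in the prosRNAi libraries and 827, 1008 and 824 in the chinmo libraries. The chinmoRNAi and prosRNAi values overlapped and the chinmo libraries lay below both. Its first step was -0.05 (SE 0.16, limma adjusted p = 0.842) and its second -0.99 (SE 0.11, limma adjusted p = 0.00297), whereas beat-IIa and beat-IIb, whose proteins bind Side-IV, were called lower in the first step. Those calls were lost in 8 (beat-IIa) and 7 (beat-IIb) of 21 alternatives, including for both genes each fit without replicate A or B of the chinmoRNAi or prosRNAi condition, with log2 fold changes of -0.75 to -0.59 and -0.68 to -0.56. The difference between the steps of side-IV was -0.94 and missed the threshold (limma adjusted p = 0.0663). DIP-zeta had -1.43 (SE 0.50, limma adjusted p = 0.0553) between the extremes and was the other partner not called there, although it passed in 7 of 21 alternatives, among them the fits without chinmo replicate B (-1.82, limma adjusted p = 0.031) or C (-0.82, adjusted p = 0.0333). The difference between a gene and its partner was not tested.

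Because the neuron markers fell along with the families, each comparison was also fitted after every library was centred on its mean log2 level of the 12 neuron markers. On this scale the median of all genes was 0.54, 0.75 and 1.33 in the first step, the second and between the extremes. In the beat family and side, 7 of 15 were then lower in the first step, where 5.41% of all genes were called lower, and 4 of 15 between the extremes, where 3.68% were, with medians of -0.53 and -0.61. In the second step 0 of 15 were called by limma and 0 had an unadjusted p below 0.05, where 0.136% of all genes were called lower, and the median was -0.07. No other tool was run on this scale. The 4 genes lower between the extremes were beat-Ia (-1.25, limma adjusted p = 0.00299), beat-Vb (-1.11, adjusted p = 0.00628), beat-Vc (-1.06, adjusted p = 0.00769) and beat-VII (-0.85, adjusted p = 0.0184). side fell more than the mean of the neuron markers in the first step (-0.65, limma adjusted p = 0.025) and had -0.61 (adjusted p = 0.0858) between the extremes.

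Among the dpr genes, 5 of 20 were lower relative to the neuron markers in the first step, where 5.41% of all genes were. Between the extremes 3 were lower (dpr7, -1.29, dpr, -0.79, and dpr13, -0.67), where 3.68% of all genes were. In the second step 0 were lower by limma, where 0.136% of all genes were, and 0 were lower at an unadjusted p below 0.05. The medians were -0.24, -0.06 and -0.31 in the 3 comparisons. Called higher after this centring were dpr2 (0.64, limma adjusted p = 0.0456) and dpr18 (0.52, adjusted p = 0.0468) in the first step, where 32.3% of all genes were called higher, dpr18 in the second (1.40, adjusted p = 0.0385, 6.23% of all genes), and dpr16 (1.10, adjusted p = 0.0122) and dpr18 (1.92, adjusted p = 0.000976) between the extremes, where 58.6% of all genes were. dpr2 was at 0.14 between the extremes (limma adjusted p = 0.752). On this scale dpr18 was thus called higher in all 3 comparisons, but its 0.52 in the first step lay below the median of all genes there (0.54). Between the extremes the 1.10 of dpr16 likewise lay below the median of all genes (1.33). It also lay below Syx1A (1.32, limma adjusted p = 0.0031), itself one of the 12 neuron markers. Between the extremes beat-Ia and dpr7 had the lowest values of their families.

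**Figure D4:**
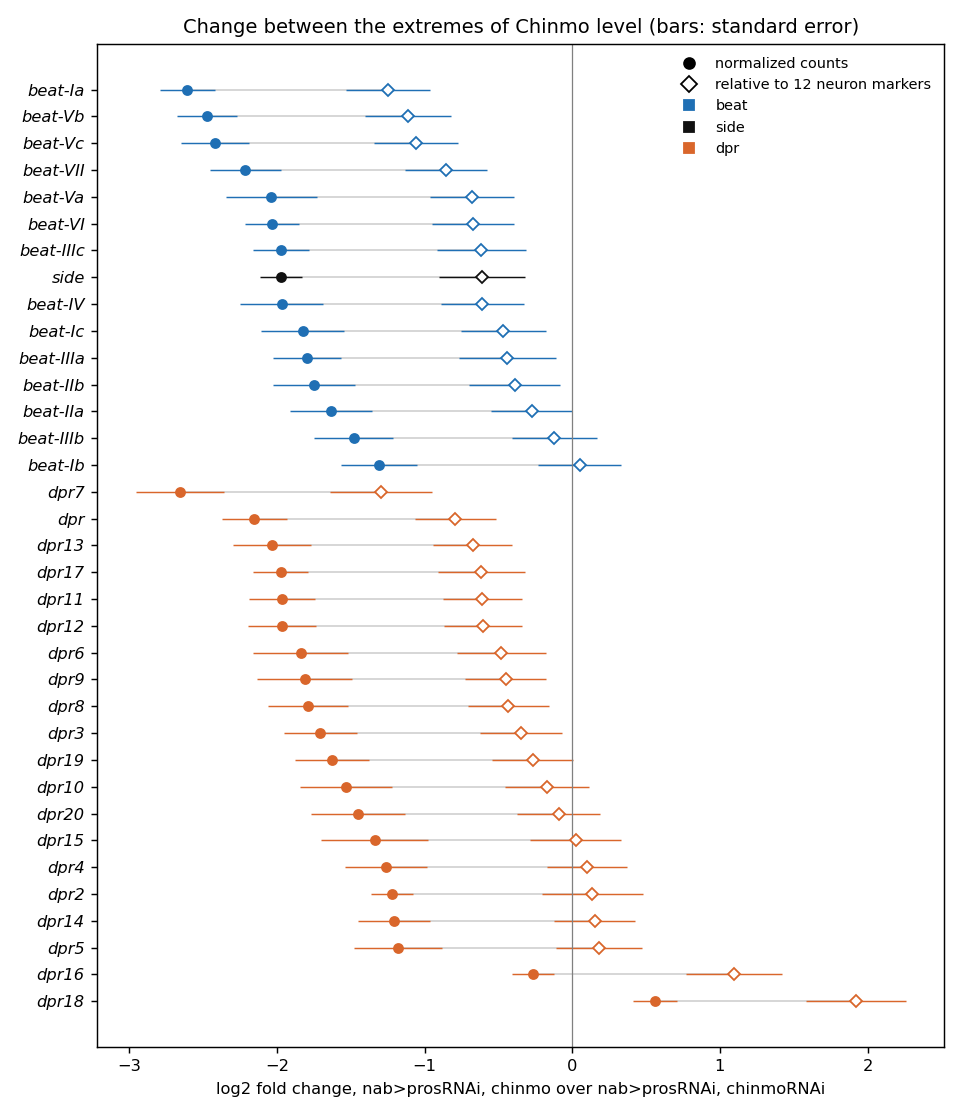
Log2 fold change of each member between the extremes (horizontal axis, chinmo over chinmoRNAi) on the normalized counts (filled circles) and relative to 12 neuron markers (open diamonds), with standard errors as bars, ordered within each family; beat genes are blue, side black and dpr genes orange. Filled circles run from -2.65 (dpr7) to 0.56 (dpr18), and the open diamonds of most members lie nearer 0, from -1.29 to 1.92.

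Levels of different genes were compared per kilobase of exon, with exon lengths of 1515 to 11723 bases from the BDGP6 annotation. In the prosRNAi libraries dpr7 stood highest at 693 normalized counts per kb, followed by dpr18 (459), dpr12 (456), beat-VI (341) and dpr11 (302), and dpr6 (41.0) and beat-IIIa (32.5) stood lowest. dpr18 and dpr12 did not differ in level beyond the spread of their libraries. In the chinmoRNAi libraries the order was led by dpr7 (2165), dpr12 (951), beat-VI (868) and beat-Ia (865), the last of these within the spread of beat-VI. dpr18 moved from place 8 of 35 there to place 2 in the prosRNAi libraries and place 1 in the chinmo libraries, where it had 712 normalized counts per kb against 342 for dpr7. dpr16 moved from place 28 to 21 and then to 7, at 182, 148 and 150.4 per kb, and beat-Ia from place 4 to 7 and 8, at 865, 252 and 142 per kb.

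**Figure D5:**
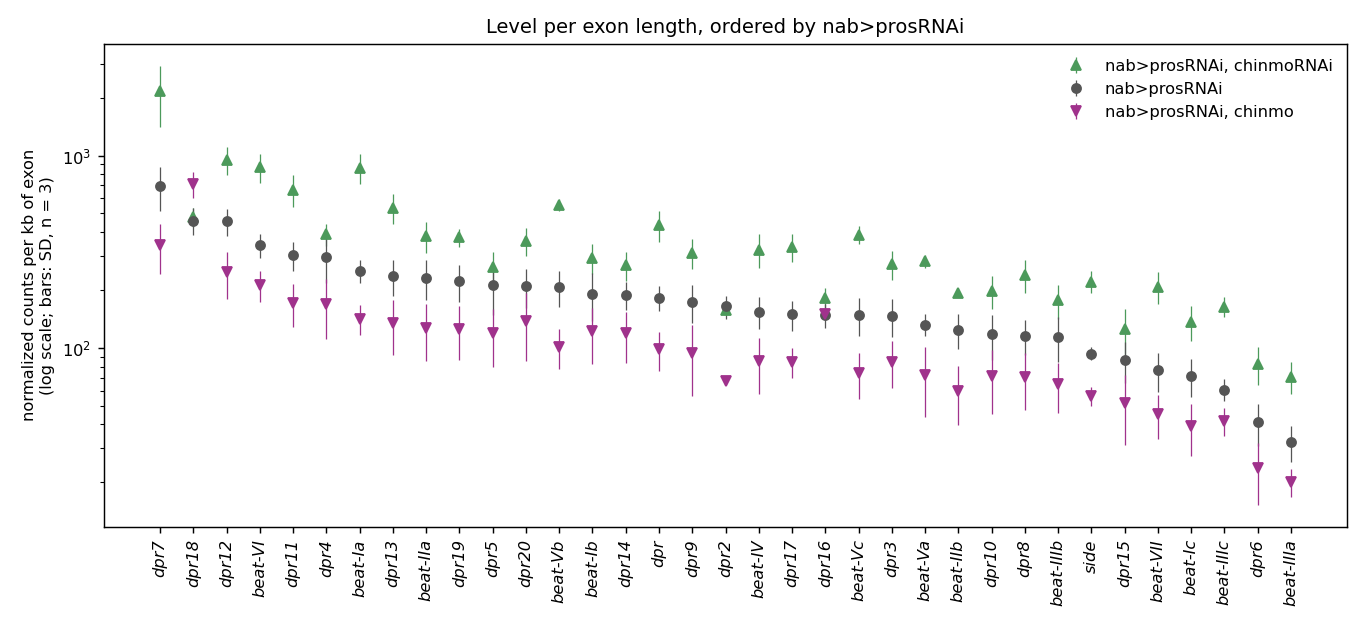
Mean normalized counts per kilobase of exon (vertical log axis) of the 35 members in the chinmoRNAi (green), prosRNAi (grey) and chinmo (purple) libraries, ordered by the prosRNAi level; bars are SD over 3 libraries. For most members green lies above grey and grey above purple, whereas for dpr18 purple lies on top and for dpr2 and dpr16 the grey point lies close to one of the others.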

How the data were processed

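RNA-seq was done on VNCs of 3 conditions with 3 biological replicates each, grouped by the genotype codes in the labels. Per the methods and processing notes, the authors demultiplexed with CASAVA 1.8.2, aligned stranded single reads to dm3 with TopHat2 2.0.9 and Bowtie2 2.1.0, discarded alignments with several mismatches, counted reads by strand with HTSeq 0.5.3p9 and divided them by DESeq size factors (DESeq is named with version 1.2.5 in the processing notes). The deposited values are these normalized counts, a signal per gene on which no count model was run as the main test. All values (100%) were whole multiples of 1 read within a tolerance of 1e-06, and the recovered reads on genes numbered 30677075 to 43415151 per library. The SD between libraries exceeded the SD from counting error in 102 of 105 pairs of member and condition, by a median of 5.07 times, and the exceptions were beat-IIb in the chinmoRNAi libraries and dpr2 and dpr16 in the chinmo libraries.

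Each pair of conditions was fitted with limma 3.58.1 in R 4.3.3 on log2(normalized count + 1), in its 6 libraries, on genes summing to at least 15, with eBayes and a mean-variance trend, and Benjamini-Hochberg adjusted p-values over all genes with a threshold of 0.05. The difference between the steps, second minus first, was tested as a contrast with the 9 libraries fitted together. The procedure was run on simulated counts in which genes varied independently at a fixed dispersion. The deviations that members shared within a library were not simulated. Members were matched by symbol. All members were named, and values in every library were given for those lower in both steps, the highest per kb of each family, those that did not fall between the extremes and those whose steps differed. Members and lists (DIP and side partners, markers of neurons, neuroblasts, glia, muscle, fat body and motor neurons) were chosen with earlier results of these data known. All 35 members and 14939 genes in total matched the RefSeq table (Release 6 plus ISO1 MT) by Entrez number, which served for names and gene order only, since the files use dm3. Exon lengths were the union of the exons of each gene in the BDGP6 annotation and served as lengths only.

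Alternatives were pseudocounts of 0.5 and 10, no filter or a mean of at least 10, median of ratios, equal totals, quantile normalization, centring on 12 neuron markers, removal of a length trend, eBayes without a trend, all 9 libraries, a replicate block, and edgeR 4.0.16 and DESeq2 1.42.0 on the recovered reads, which called 1980 genes lower and 1735 higher (edgeR) and 2205 and 2041 (DESeq2) in the first step, 744 and 1336, and 1494 and 1695 in the second, and 2276 and 2857, and 2787 and 2531 between the extremes. Each library was left out in turn. Whether replicate letters pair the libraries was checked by correlating deviations from the condition means over genes. Same-letter correlations ran from -0.351 to 0.202, so the letters were not treated as pairs. No sequencing batch is given for single libraries. Figures were drawn with matplotlib 3.10.9 in Python 3.11.15.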

Additional observations from a re-analysis of the deposited data

Results flagged for a closer look

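dpr2 was the member whose response to the first and to the second step of Chinmo level differed by the contrast of the steps, with a second step minus first step of -1.32 on the log2 scale (SE 0.23, limma adjusted p = 0.0125 with Benjamini-Hochberg adjustment over all genes). Its prosRNAi and chinmoRNAi libraries overlapped, and all 3 chinmo libraries lay below all 6 others.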

How the results depend on the processing

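Of 2835 values of members, the 9 named partners and dpr21 under the alternatives, 2518 kept their direction and their side of the threshold, 213 lost and 55 gained a call, and 49 changed sign, 29 of them in the fit relative to the neuron markers. Between the extremes the count of beat and side genes called lower was 15 in every alternative other than that fit, where it was 4, and the count of dpr genes was 16 to 19 in the others and 3 in that fit. Its other counts were 7, 0 and 0 for beat and side genes (first step, second step, both steps), 5, 0 and 0 for dpr genes, and 4, 0, 3 and 0 for partners (the extremes before both steps). On that scale values turned positive in the first step for dpr14 (0.077), dpr15 (0.058), dpr16 (0.29), dpr18 (0.52), dpr4 (0.18), dpr5 (0.26) and side-IV (0.54), in the second for beat-IIIa (0.093), beat-IIIc (0.23), beat-Ib (0.10), beat-VI (0.079), beat-VII (0.0045), side (0.037), dpr10 (0.0019), dpr14 (0.075), dpr20 (0.11), dpr8 (0.034), DIP-alpha (0.63), DIP-epsilon (0.0030) and side-V (0.017), and between the extremes for beat-Ib (0.051), dpr14 (0.15), dpr15 (0.022), dpr16 (1.10), dpr2 (0.14), dpr4 (0.10), dpr5 (0.18), DIP-alpha (1.28) and side-IV (0.32). These signs follow from the centring, which moves the median of all genes.

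The second step was the comparison most open to the processing. Its lower calls (beat and side, dpr, partners) were 5, 6 and 5, against 2, 1 and 2 with eBayes without a trend and 12, 12 and 8 with DESeq2, and the genes lower in both steps were 5, 5 and 4 against 2, 0 and 1, and 12, 10 and 7. Leaving out 1 library gave 1 to 4, 1 to 5 and 1 to 3 in the second step, 1 to 5, 0 to 5 and 0 to 4 in both steps, and 10 to 15, 7 to 15 and 8 to 15 in the first. Over all genes the second-step lower calls were 913, against 547 with eBayes without a trend, 1494 with DESeq2 and 234 to 874 without 1 library. First-step lower calls over all genes were 2048, against 1285 to 2473 without 1 library. The share of all genes lower in both steps was not computed for the alternatives. Without replicate C of each condition, partners were 3 in the second step and 2 in both, and under quantile normalization 2 in both. The cause was not tested. With the replicate block the second-step counts were 0, 0 and 0 by limma, where 45 of 11057 genes were called lower, and so were the counts of both steps. At an unadjusted p below 0.05 the second-step counts were 8, 7 and 7, and the share of all genes at that threshold was not computed. Under the replicate block the difference between the steps of dpr2 was -1.32 and no longer passed (limma adjusted p = 0.0527), leaving 0 members. The replicate block also ended the second-step rise of dpr18 (0.63, limma adjusted p = 0.082), as did eBayes without a trend (adjusted p = 0.0783). Leaving out 1 library gave 0 to 2 members whose steps differed, and -1.51 to -1.12 for dpr2, and without replicate C of each condition 15 members differed. dpr5 and dpr15 lost their calls between the extremes under quantile normalization (-0.69 and -0.81) and without chinmoRNAi replicate B (-1.02 and -1.13), and dpr15 without chinmoRNAi replicate A (-1.39).

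Signs also changed near 0 for members that were not called. dpr16 was -0.051 in the second step with equal totals and -0.035 to 0.15 without 1 library, and 0.11 between the extremes under quantile normalization. dpr18 was 0.011 in the first step under quantile normalization and -0.20 to 0.023 without 1 library. dpr2 was -0.051 to 0.15 in the first step without 1 library (negative without prosRNAi replicate C) and -0.053 without replicate C of each condition. DIP-zeta was 0.084 in the second step without replicate C of each condition. DIP-alpha was 0.00032 in the second step and 0.24 between the extremes with the length trend removed, 0.050 between the extremes under quantile normalization, 0.055 by edgeR, and, without 1 library, -0.037 to 0.11 in the first step, -0.29 to 0.052 in the second and -0.23 to 0.11 between the extremes. side-IV was 0.071 in the first step with the length trend removed and -0.19 to 0.10 without 1 library. Equal totals moved the median of all genes between the extremes to -0.15 and quantile normalization to 0.11. The split of all calls into lower and higher moved from 913 and 1077 to 1621 and 817 (second step) and from 2626 and 2305 to 2964 and 1608 (extremes) with equal totals. Under quantile normalization it was 1734 and 2188 against 2048 and 1617 (first step) and 2186 and 2945 (extremes), with the length trend removed 2262 and 2889 (first step), and by edgeR 744 and 1336 (second step).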
